A study of Mus musculus with 4 samples.

Results

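Cadherins are calcium-dependent adhesion proteins of the cell surface, and the 29 genes described here are the cadherins (Cdh) and the non-clustered protocadherins (Pcdh) of a mouse fibroblast transcriptome. The rule used gene names and no measured value. Every row named Cdh or Pcdh followed by a number, with or without a final x, was taken, which gave 17 Cdh and 12 Pcdh genes among the 23537 genes of the table. RNA was sequenced from primary mouse embryonic fibroblasts (MEFs), cells of connective tissue cultured from C57BL/6 embryos at day 12.5 post coitum. KO cells were *Mbd4*-/- and WT cells were *Mbd4*+/+, with 2 libraries each and no treatment named for either group. *Mbd4* encodes a DNA glycosylase that binds methylated CpG sites, and the comparison of KO with WT asks how transcript levels differ where it is missing. The samples of a genotype are described as independent, but the sources used here do not give the number of embryos or cultures behind them, and p-values therefore rest on a spread between libraries that may be technical.

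Classical cadherins bind the same protein on the neighbouring cell and are anchored to actin through beta-catenin and alpha-catenin at adherens junctions, where p120-catenin holds them at the surface. Type I cadherins include the epithelial, neural, placental and retinal forms, and type II cadherins include the mesenchymal form encoded by *Cdh11*. The delta protocadherins are a related group, best known from the nervous system, whose cytoplasmic tails do not bind beta-catenin. Mesenchymal cells such as fibroblasts are known for high *Cdh2* and *Cdh11* and for little *Cdh1*.

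The libraries held 39108275 to 47567835 counts in genes, of which the 29 genes took 0.0944% to 0.1096%. *Mbd4* itself was counted 373 and 302 times in KO and 663 and 630 times in WT. It was lower in KO (log2 fold change -0.99 ± 0.109 SE, adjusted p = 2.8e-06 by the quasi-likelihood test of edgeR, Benjamini-Hochberg adjusted). The sources used here do not give the part of the gene that the allele removes. *Ift122*, a separate gene that was read beside *Mbd4*, had 7 and 3 counts in KO and 1002 and 944 in WT. Its log2 fold change was -7.62 (adjusted p = 3.7e-12 by the same test), and the cause of its fall was not tested. Replicates were not copies of one library, since chi-square per gene between them was 6.05 in KO and 12.6 in WT. The fibroblast markers *Col1a1*, *Col1a2*, *Col3a1* and *Vim* were abundant in all 4 libraries, whereas others of the list were near 0 counts in KO. Of the 12 markers, 7 were lower and 2 higher in KO, beside 32.5% and 34.3% of all tested genes. Their summed level was 10200 and 10900 CPM (counts scaled to library size) in KO against 17200 and 15600 in WT. *Pdgfra*, *Pdgfrb* and *Thy1* did not pass the test. *Fap* was higher at low counts, 11 and 12 in KO against 4 and 1 in WT. *Dcn*, which encodes decorin, had 5 and 7 counts in KO against 1349 and 1123 in WT, and *Lum* had 0 and 1 against 142 and 131. *Prrx1*, a transcription factor of limb and facial mesenchyme, went the other way, with 25245 and 21228 counts in KO against 5567 and 6268 in WT (log2 fold change 1.92, adjusted p = 3e-10). In bulk RNA fewer cells of a type cannot be told apart from less RNA per cell.

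Levels are given as CPM scaled by TMM, a factor that centres most genes on no change, and divided by the length of the gene's exons in kb so that genes can be compared. In both genotypes *Cdh11*, the mesenchymal cadherin OB-cadherin, stood first. It reached 94.4 and 96.2 CPM per kb in KO and 106 in each WT library, which was 55.2% of the summed level of the 29 genes in KO and 47.7% in WT. *Pcdh18*, a delta-2 protocadherin, stood next in both genotypes at 23.2 and 23.0 in KO and 44.1 and 45 in WT. The order then parted. *Cdh4*, the retinal cadherin R-cadherin, was the 3rd most abundant in KO and the 20th in WT, while *Cdh3*, the placental cadherin P-cadherin, was the 4th in WT and the 17th in KO. *Cdh2*, the neural cadherin N-cadherin, was 4th in KO and 3rd in WT, and *Pcdh19* was 5th in both. The first 3 genes of each genotype made up 77.4% and 77.5% of the sum in KO (*Cdh11*, *Pcdh18* and *Cdh4*) and 76.8% and 76.6% in WT (*Cdh11*, *Pcdh18* and *Cdh2*). Summed over the 29 genes, the level was 173 ± 2.35 CPM per kb in KO and 222 ± 2.34 in WT (SD, n = 2). Most of that gap lay in the protocadherins, at 35.5 ± 0.347 against 67 ± 1.51, while the cadherins stood at 137 ± 2.01 against 155 ± 0.837. Scaled by library totals the cadherin sums were 144 ± 2.40 and 147 ± 2.51, closer together, and the protocadherin sums were 37.3 ± 0.44 and 63.6 ± 2.17.

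**Figure D1:**
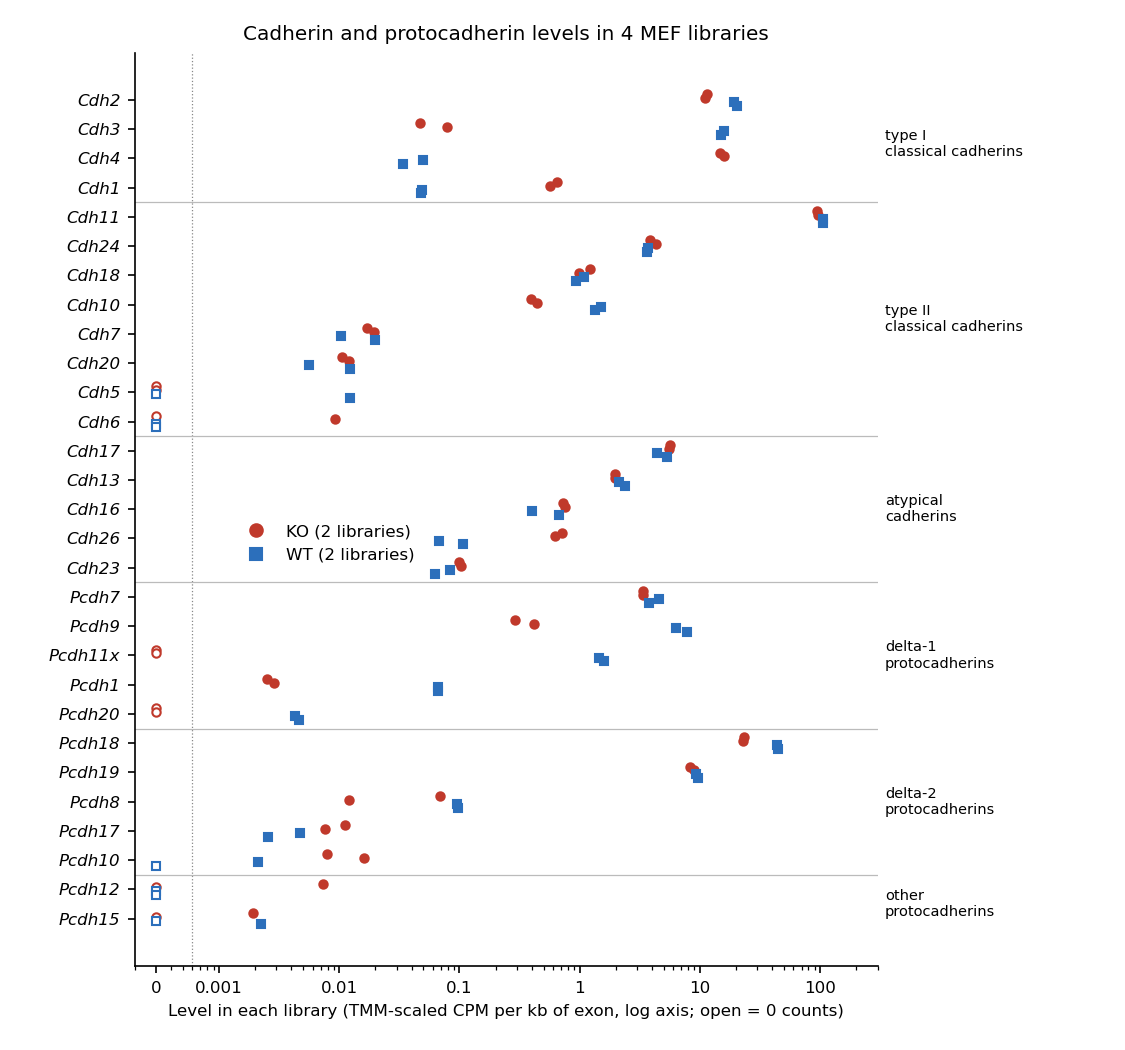
Level of each of the 29 genes in each of the 4 libraries (TMM-scaled CPM per kb of exon on a log axis, KO as red circles, WT as blue squares, open symbols at the left for 0 counts), grouped by role and ordered by mean level. Replicates lie close together above about 1 CPM per kb, and *Cdh4*, *Cdh3*, *Pcdh9* and *Pcdh11x* are the genes above 1 CPM per kb in either genotype that lie farthest apart.

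Of the 29 genes, 20 passed edgeR's filter on low counts and 9 had at most 7 counts in any library. At an adjusted p of 0.05, 3 of the 20 were higher in KO and 10 lower, where 34.3% of all 15538 tested genes were higher and 32.5% lower. In all, 65.0% of the tested members were called, against 66.8% of all genes, a share near the background. Large changes made up a larger share. Past both stricter limits, adjusted p 0.01 and a log2 fold change of more than 2 in size, 3 were higher (*Cdh4*, *Cdh1* and *Cdh26*; background 5.79%) and 4 lower (*Cdh3*, *Pcdh11x*, *Pcdh9* and *Pcdh1*; background 3.15%), or 35.0% of those tested against 8.94% of all genes in either direction. Several of these passed the filter only through the genotype in which they were high, so the share describes the tested genes and no test of it was made. Scaled CPM did not overlap between the genotypes for 19 of the 20, or 95%, where both KO libraries lay above both WT libraries for 43% of all genes and below them for 39.8%. The median log2 fold change was -0.17 over the tested members and 0.0242 over all genes. When libraries were scaled by their totals, the median of all genes was 0.173 and the members split into 7 higher and 7 lower, so the split between directions depended on the scaling, while all 7 large changes kept their direction and their call.

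**Figure D2:**
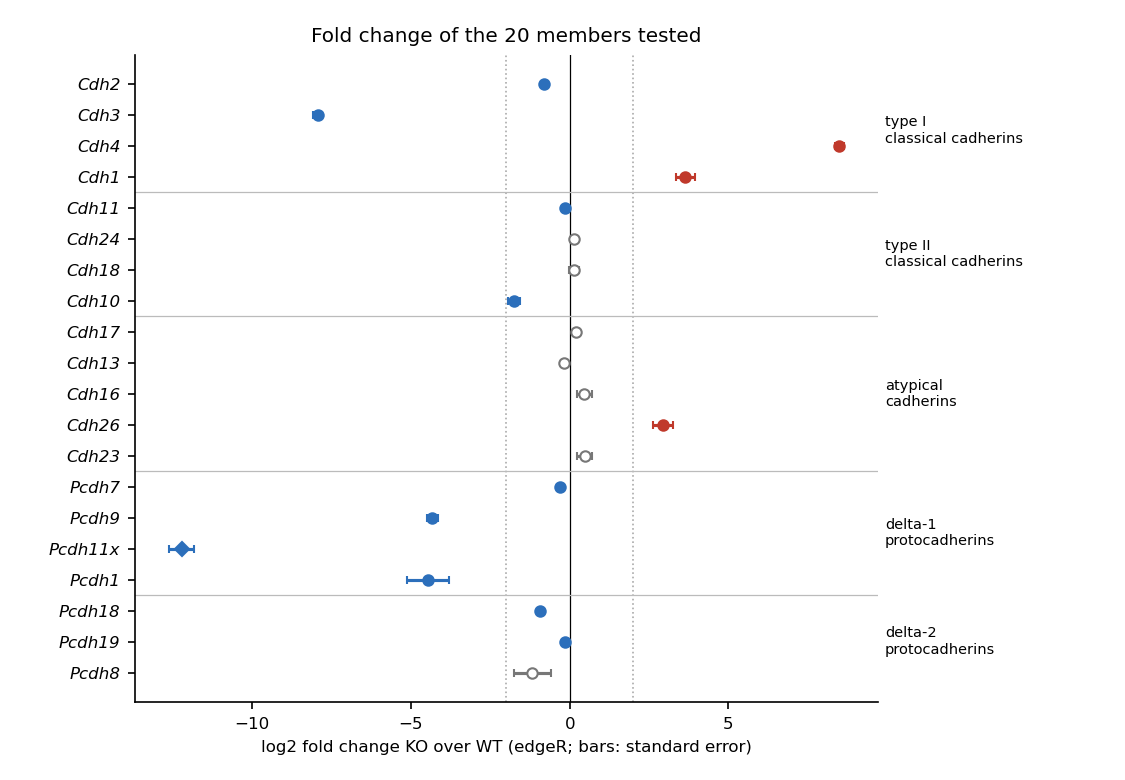
Log2 fold change of KO over WT for the 20 genes tested by edgeR's quasi-likelihood test, with bars of 1 standard error, red for higher, blue for lower and open grey for genes past no threshold, and dotted lines at -2 and 2. Both large rises and large falls occurred among the type I cadherins, and all 4 tested delta-1 protocadherins lie left of 0 (the diamond of *Pcdh11x* is a fitted value against 0 counts and is no measure of size).

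The type I cadherins held the largest rise among the members and, apart from *Pcdh11x*, the largest fall. Of 4 genes, all tested, 2 were higher and 2 lower in KO, beside 34.3% and 32.5% of all tested genes. *Cdh4* (R-cadherin; ENSMUSG00000000305) lies on the plus strand of mm9 at chr2:179177136-179634078. Its counts were 5060 and 4747 in KO and 16 and 10 in WT. Both KO libraries were thus far above both WT libraries, by 8.50 ± 0.136 (SE) log2 units or 362-fold, and edgeR's quasi-likelihood test gave an adjusted p of 3.8e-14. Among all tested genes only 22 had a larger rise. One of its exons overlaps the gene model *Gm10711* on the same strand, so reads of that stretch cannot be assigned to 1 of them.

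*Cdh3* (P-cadherin; ENSMUSG00000061048), found in basal epithelia and placenta, moved the opposite way. Its 9 and 13 counts in KO stood against 2858 and 2435 in WT, a difference of -7.94 ± 0.151 on the log2 scale, or 246-fold lower, with an adjusted p of 1.2e-13. Only 18 tested genes fell further. *Cdh1* (E-cadherin; ENSMUSG00000000303), the main cadherin of epithelia, lies 46.4 kb downstream of *Cdh3* on the same strand of chromosome 8, at chr8:109127251-109194146 in mm9, and *Cdh3* at chr8:109034791-109080808. Its counts were 142 and 107 in KO and 10 and 9 in WT, without overlap. *Cdh1* was 12.5-fold higher in KO (log2 fold change 3.64 ± 0.292, adjusted p = 1.2e-07), although its KO level of 0.610 ± 0.0606 CPM per kb was a small part of that of *Cdh4*, 15.3 ± 0.853. The neighbouring pair *Cdh3* and *Cdh1* therefore changed in opposite directions. *Cdh2* (N-cadherin) was abundant in every library, with 4359 and 3682 counts in KO and 6897 and 6738 in WT. It was 1.76-fold lower in KO (adjusted p = 5.9e-08).

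As shares of the summed type I level, *Cdh2* held 42.4% and 40.0% in KO and 54.3% and 57.7% in WT. *Cdh4* made up most of the rest in KO, at 55.0% and 57.6%, and was 0.141% and 0.0957% in WT. *Cdh3* made up nearly all of the rest in WT, at 45.4% and 42.1%, and was 0.177% and 0.285% in KO. *Cdh1* was 2.44% and 2.05% in KO and 0.139% and 0.136% in WT. The sum of the 4 genes was 27.2 ± 0.605 CPM per kb in KO and 35.3 ± 0.134 in WT (SD, n = 2), so the sums lay nearer to each other than the levels of *Cdh3* or *Cdh4*. No test was made on these sums, since exact permutation of 2 against 2 libraries reaches a two-sided p of 0.333 at best.

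**Figure D3:**
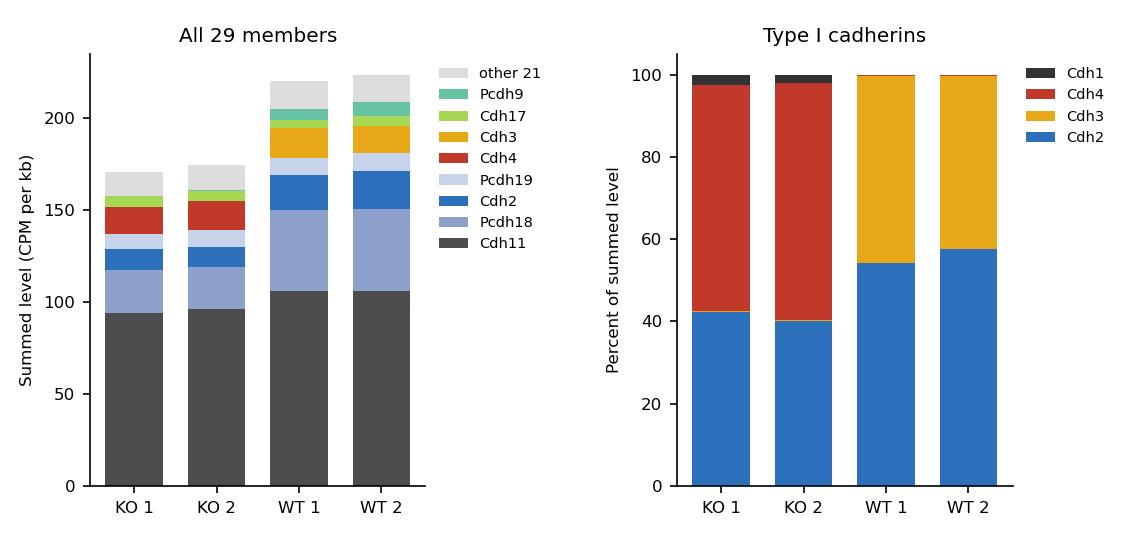
Left, summed level of the 29 genes in each library (CPM per kb), with the 8 most visible genes coloured and the other 21 in grey. Right, percent of the summed type I cadherin level held by *Cdh2*, *Cdh3*, *Cdh4* and *Cdh1* in each library. The WT libraries pair *Cdh2* with *Cdh3* (45.4% and 42.1%), and the KO libraries pair *Cdh2* with *Cdh4* (55.0% and 57.6%).

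Of the 8 type II cadherins, 4 were tested. In KO 2 of these were lower and none higher, beside 32.5% and 34.3% of all tested genes. *Cdh11* had 18913 and 16724 counts in KO and 20033 and 18313 in WT, a difference of -0.15 ± 0.0572 on the log2 scale with an adjusted p of 0.029. This small change was not called after scaling by upper quartile or by library totals (log2 fold change -0.01, adjusted p = 0.94), or without either KO library (adjusted p = 0.15 without replicate 1 and 0.082 without replicate 2). *Cdh10*, which is best known from the brain, had 67 and 65 counts in KO and 238 and 196 in WT and fell by 1.76 on the log2 scale (SE 0.183, adjusted p = 1.5e-06). *Cdh24* had 497 and 485 counts in KO and 456 and 403 in WT and did not pass the test (log2 fold change 0.15, adjusted p = 0.27), and its exons overlap the gene model CT009512.1 on the opposite strand. *Cdh18* overlapped between the genotypes, with 261 and 187 counts in KO and 223 and 173 in WT (adjusted p = 0.52). *Cdh5*, the VE-cadherin of endothelial cells, had 2 counts in 1 WT library and 0 in the others, and *Cdh6*, *Cdh7* and *Cdh20* had at most 7 counts.

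The 5 atypical cadherins were all tested, and 1 of them was called, beside 66.8% of all tested genes. *Cdh26*, known from epithelia, had 100 and 76 counts in KO and 9 and 13 in WT, a 7.62-fold rise (log2 fold change 2.93 ± 0.318, adjusted p = 2.3e-06). In mm9 it lies at chr2:178165236-178222071, 955 kb upstream of *Cdh4* on the same strand. Of the 2 genes of the table between them 1 was tested, and it was not called. *Cdh17*, the liver-intestine cadherin, was the most abundant of the group at 5.66 and 5.49 CPM per kb in KO and 4.36 and 5.28 in WT. Its counts of 1204 and 1013 in KO and 874 and 967 in WT gave a log2 fold change of 0.21, with adjusted p = 0.064. *Cdh13*, a cadherin held to the membrane by a lipid anchor, differed by -0.19 on the log2 scale (adjusted p = 0.069). *Cdh16*, the kidney cadherin, and *Cdh23*, a part of the tip links of inner ear hair cells, had 43 to 114 counts in each library and adjusted p-values of 0.11 and 0.097.

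All 4 tested delta-1 protocadherins were lower in KO, where 32.5% of all tested genes were lower. *Pcdh11x* and *Pcdh1* passed the filter only through their WT counts, so the filter favoured this direction for them. The count describes the tested genes, and no test of it was made. *Pcdh11x*, an X-linked gene expressed mainly in brain, had 0 counts in both KO libraries against 586 and 593 in WT. Taking the limit of 3 counts that a count of 0 allows over the KO group, it was at least 407-fold lower in KO, and no tested gene had a lower fitted fold change. In mm9 it spans chrX:117403868-118024228 on the plus strand. *Pcdh9*, also known from the nervous system, had 51 and 64 counts in KO and 1044 and 1187 in WT. It was 20.1-fold lower, or -4.33 ± 0.169 on the log2 scale (adjusted p = 9.7e-11). Its gene lies at chr14:93414731-94287951 on the minus strand of mm9.

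*Pcdh1*, known from epithelia of the airway, was low throughout, with 1 count in each KO library and 25 and 23 in WT. The ratio of WT to KO over the groups was 24.8 with an exact 95% interval of 6.51 to 211, which covers counting error only because reads were not marked by molecule. Its adjusted p was 3.8e-05. *Pcdh7* had 987 and 867 counts in KO and 1271 and 965 in WT and was 1.24-fold lower (adjusted p = 0.0097). That call was lost with library totals (adjusted p = 0.13) and without KO replicate 1, KO replicate 2 or WT replicate 1 (0.076, 0.057 and 0.12). *Pcdh20* had 1 count in each WT library and none in KO. The summed delta-1 level was 3.72 ± 0.122 CPM per kb in KO and 12.8 ± 0.638 in WT, and *Pcdh9* alone accounted for 6.28 and 7.80 of it in the WT libraries.

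Among the delta-2 protocadherins, 3 of 5 were tested and 2 were lower in KO, where 32.5% of all tested genes were lower. *Pcdh18* was the most abundant protocadherin, with 5698 and 4901 counts in KO and 10209 and 9521 in WT, and it was 1.93-fold lower (log2 fold change -0.95 ± 0.0573, adjusted p = 7.2e-09). *Pcdh19*, an X-linked gene whose variants cause an epilepsy, had 4064 and 3766 counts in KO and 4309 and 4095 in WT. Its log2 fold change of -0.15 had an adjusted p of 0.048, and the call was lost under 8 of the other settings, including library totals (adjusted p = 0.99) and the leaving out of KO replicate 1, KO replicate 2 or WT replicate 2 (0.34, 0.064 and 0.052). The exons of *Pcdh19* overlap the gene model *Gm16795* on the opposite strand. *Pcdh8* had 13 and 2 counts in KO and 17 and 16 in WT, and 1 low KO library set its difference, with an adjusted p of 0.087 on all libraries and 0.024 without KO replicate 1. *Pcdh10* and *Pcdh17* were below the filter. Their counts were 4 and 7 in KO against 1 and 0 in WT, and 5 and 3 against 2 and 1, with ratios of 10.6 (exact 95% interval 1.54 to 457) and 2.58 (0.618 to 15.1). *Pcdh12* and *Pcdh15*, which belong to neither delta group, had at most 2 counts.

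The study asked about promoters with few methylated CpG sites, and the CG dinucleotide, which reads the same on both strands, was therefore counted in the promoters of the members. The promoters are 300-base windows of RefSeq on GRCm38.p6, from 250 bases before to 50 after the start, and 17 of the 29 genes matched, 10 of them tested. Of 32851 such windows 94.6% held at least 1 CG, with a median of 7. The first window of the 17 genes held 2 to 30, with a median of 14. The windows of 4 called genes are shown because they run from few to many CG, with each CG in capitals, 5′ to 3′ on the strand of the gene. *Cdh26*, which rose, had 4 (chr2:178430265-178430564, plus strand), and 31.4% of all windows had fewer. *Cdh10*, which fell, had 2 (chr15:18820079-18820378, plus strand), and 14.1% had fewer. *Pcdh9* and *Pcdh18*, which both fell, had 18 (chr14:93890630-93890929, minus strand) and 23 (chr3:49757267-49757566, minus strand), with 70.3% and 78.5% of all windows below them. *Pcdh9* has a further window, shifted by 10 bases and holding 19, and the printed one, first in the RefSeq table, is the one behind the median.
Cdh26: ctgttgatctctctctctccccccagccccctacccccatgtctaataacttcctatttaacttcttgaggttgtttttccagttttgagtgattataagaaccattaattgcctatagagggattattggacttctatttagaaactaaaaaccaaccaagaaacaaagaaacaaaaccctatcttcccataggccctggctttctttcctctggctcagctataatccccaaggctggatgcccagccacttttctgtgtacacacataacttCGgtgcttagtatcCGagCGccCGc
Cdh10: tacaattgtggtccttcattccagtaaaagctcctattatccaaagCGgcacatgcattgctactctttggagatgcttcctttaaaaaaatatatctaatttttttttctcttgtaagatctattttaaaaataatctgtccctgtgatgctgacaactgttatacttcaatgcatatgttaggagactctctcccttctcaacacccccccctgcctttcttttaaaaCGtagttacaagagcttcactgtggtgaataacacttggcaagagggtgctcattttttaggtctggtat
Pcdh9: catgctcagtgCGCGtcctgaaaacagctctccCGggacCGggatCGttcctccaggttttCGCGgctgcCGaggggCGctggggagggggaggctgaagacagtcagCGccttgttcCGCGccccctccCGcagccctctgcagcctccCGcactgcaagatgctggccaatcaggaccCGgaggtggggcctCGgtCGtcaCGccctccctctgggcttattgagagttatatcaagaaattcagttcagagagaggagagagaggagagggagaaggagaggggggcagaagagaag
Pcdh18: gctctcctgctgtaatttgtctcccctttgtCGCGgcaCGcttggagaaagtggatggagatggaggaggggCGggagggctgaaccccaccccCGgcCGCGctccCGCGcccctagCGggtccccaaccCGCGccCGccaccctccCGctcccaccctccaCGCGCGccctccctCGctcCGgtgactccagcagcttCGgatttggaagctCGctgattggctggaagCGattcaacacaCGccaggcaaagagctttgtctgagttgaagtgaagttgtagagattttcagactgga

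Called genes thus had both CG-poor and CG-rich windows, and among the 4 shown the windows with few CG belonged to 1 gene that rose and 1 that fell. The tested genes that were not called covered a like range, from 5 in *Cdh23* to 12 in *Cdh18*, 14 in *Pcdh8* and 30 in *Cdh24*. Methylation of these windows was not analysed here. *Cdh1*, *Cdh11*, *Cdh13*, *Cdh16*, *Cdh17*, *Cdh2*, *Cdh3*, *Cdh4*, *Cdh5*, *Pcdh1*, *Pcdh11x* and *Pcdh12* were not matched.

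The proteins that join cadherins to actin were measured as a list of 25 genes, of which 22 were tested. In KO 5 were higher and 13 lower, beside 34.3% and 32.5% of all tested genes, and their median log2 fold change was -0.44 against 0.0242 over all genes. The core catenins shared no direction. *Ctnnb1*, which encodes beta-catenin, did not pass the test (log2 fold change 0.06, adjusted p = 0.35). *Ctnna1*, the alpha-catenin of most tissues, was lower (-0.46, adjusted p = 1.2e-05), and *Ctnnd1*, the p120-catenin that holds cadherins at the surface, was higher (0.36, adjusted p = 0.0001). *Vcl*, encoding the actin-binding protein vinculin, had the highest mean CPM of the list over all libraries and was lower (-1.08 ± 0.0603, adjusted p = 3.2e-09). In KO alone *Ctnnb1* stood above *Vcl*, at a mean of 979 CPM against 838. The largest fall was that of *Ctnnd2*, a delta-catenin known from neurons, with 71 and 78 counts in KO and 357 and 248 in WT (-2.06 ± 0.194, adjusted p = 5.9e-07). *Plekha7*, which binds p120-catenin, and *Pvrl2*, which encodes nectin-2, were lower as well (-1.48 and -0.92). *Arvcf*, another catenin of the p120 family, had the largest rise, with 1725 and 1528 counts in KO and 604 and 582 in WT (1.41 ± 0.0807, adjusted p = 4.4e-09). *Pvrl1*, encoding nectin-1, *Lima1*, encoding the actin-binding protein EPLIN, and *Limd1* were higher by 0.67, 0.47 and 0.41 on the log2 scale.

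Of the other genes of the cadherin superfamily, 27 were listed, 20 rows were in the table and 11 were tested. In KO 6 were higher and 3 lower, beside 34.3% and 32.5% of all tested genes. Their median log2 fold change was 0.88 against 0.0242 over all genes. *Dchs1*, the ligand of the planar polarity receptor encoded by *Fat4*, had 2791 and 2876 counts in KO and 197 and 173 in WT (3.90 ± 0.108, adjusted p = 3.8e-12). *Fat4* itself was higher too (1.25 ± 0.0834, adjusted p = 1.9e-08), so that both members of this ligand and receptor pair were higher in KO. *Fat1* was lower (-0.81, adjusted p = 1.4e-07). *Celsr1* and *Celsr2*, which act in planar cell polarity, were higher by 1.05 and 1.06, the first losing its call without KO replicate 2 (adjusted p = 0.055). *Ret*, a receptor tyrosine kinase with cadherin repeats, had 4 and 2 counts in KO against 47 and 30 in WT (-3.67, adjusted p = 2.2e-05). *Clstn1*, encoding a calsyntenin, was lower by a small amount (-0.34, adjusted p = 0.00022). The desmosomal cadherins in the table, *Dsg1b*, *Dsg2*, *Dsg4* and *Dsc3*, were not tested, with at most 11 counts in a library.

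Transcription factors that act on cadherins in epithelial-mesenchymal transition formed a further list. Of 15 listed, 9 were tested, with 3 higher, 2 lower and a median of -0.01, so that 5 of 9 were called beside 66.8% of all tested genes. *Zeb1*, *Zeb2* and *Twist1*, known repressors of *Cdh1* or inducers of *Cdh2*, did not pass the test (log2 fold changes 0.02, -0.01 and -0.15). The row of *Zeb1* held 133 and 88 counts in KO and 115 and 95 in WT. Its gene identifier had no exon length in the annotation used, so it may not measure the whole gene. *Snai2*, encoding the repressor Slug, was higher with 3908 and 3403 counts in KO and 2255 and 2019 in WT (0.73 ± 0.0638, adjusted p = 2.9e-07). *Tcf4*, which had the highest CPM of the list before division by length, was lower (-0.45) and *Tcf3* higher (0.37). *Grhl1*, a factor of epithelial cells, was higher at low counts, 29 and 24 in KO against 14 and 6 in WT (1.35, adjusted p = 0.014). *Snai1* was lower by a margin that other scalings removed (-0.23, adjusted p = 0.04, against 0.45 with library totals).

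**Figure D4:**
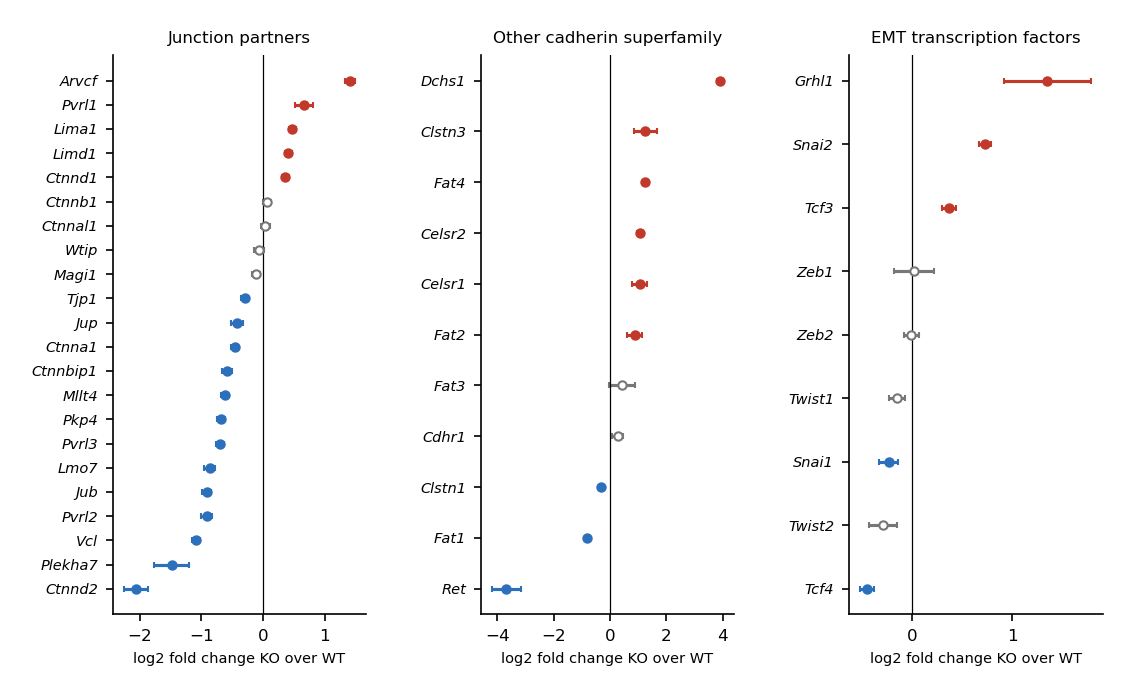
Log2 fold change of KO over WT with 1 standard error for the tested genes of the lists of junction partners, other cadherin superfamily genes and transcription factors of epithelial-mesenchymal transition (red higher, blue lower, open grey past no threshold in edgeR's quasi-likelihood test). *Arvcf* and *Ctnnd2* mark the ends of the junction partners, at 1.41 and -2.06, and *Dchs1* stands alone on the right among the superfamily genes at 3.90.

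Markers of other cell types were examined beside these results. Each count of calls below stands beside 34.3% of all tested genes higher and 32.5% lower in KO. Of 16 epithelial markers with a row, 5 were tested, with 1 higher and 2 lower, and their summed level was 7.26 and 7.08 CPM in KO against 31.9 and 33.2 in WT, largely through *Krt19*, with 12 and 14 counts in KO and 1229 and 1114 in WT. *Epcam* had 12 to 18 counts in each library, *Krt8* had 2 and 0 in KO and 6 and 18 in WT, and *Krt18* had 0 in both KO libraries and 3 and 7 in WT. The other way went *Spint1*, which encodes a protease inhibitor of epithelia, with 200 and 179 counts in KO and 23 and 51 in WT (log2 fold change 2.30, adjusted p = 8.1e-06). *Krt5* and *Krt15*, keratins of basal epithelia, had 6 and 5 and 10 and 4 counts in KO and none in WT. *Cdh3* was thus low where *Krt19* was low, and *Krt19* made up most of the summed epithelial level in WT. *Krt7* had 85 and 64 counts in KO and 62 and 61 in WT and did not pass the test. *Cdh1* and *Cdh26* rose, as did *Spint1*, the 1 epithelial marker called higher. *Esrp2* fell, with 6 and 4 counts in KO and 71 and 77 in WT (log2 fold change -3.91), and *Epcam* did not pass the test. The part of other cells in the changes of *Cdh3*, *Cdh1* and *Cdh26* was not tested. Of 10 endothelial markers 6 were tested, with 1 higher and none lower, at 19.3 in both KO libraries and 19.4 and 17.6 in WT. The 1 call, of *Egfl7*, was lost with RLE and DESeq2 and without KO replicate 1, KO replicate 2 or WT replicate 2. Glial and neural crest markers (5 tested, 2 higher, 3 lower) summed to 6.56 and 6.33 in KO and 5.29 and 4.93 in WT. Neuronal markers (3 tested, 1 higher, 1 lower) summed to 31.2 and 30.0 against 35.3 and 37.0, with *Elavl3* and *Elavl4* at 0 to 3 counts. *Stmn2*, a stathmin of growing neurites, had 1267 and 976 counts in KO and 112 and 95 in WT (log2 fold change 3.38, adjusted p = 5.4e-11). *Tubb3*, a tubulin of neurons, had 181 and 234 in KO and 1447 and 1402 in WT (-2.82, adjusted p = 9e-10), so the sum covers a large rise and a large fall. Muscle markers (4 tested, 1 higher, 1 lower) summed to 4.71 and 5.17 against 3.57 and 3.81, and immune markers (5 tested, 2 higher, 2 lower) to 8.02 and 7.81 against 7.03 and 6.01.

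The position of the members in the genome was set beside the fold changes of all tested genes, a description made after the data had been seen. Of the 29 genes 6 lie on chromosome 8 and 5 on chromosome 14. The tested genes of chromosome 8 had a median log2 fold change of -0.52 (800 genes) and those of chromosome 14 a median of -0.50 (524 genes), against -0.20 to 0.36 on the other 18 chromosomes. In windows of 10 Mb the median was below 0 in 10 of 11 windows of chromosome 8 and in 8 of 8 of chromosome 14. Elsewhere it was below 0 in 73 of 211, among them 17 of 18 on chromosome 2, 7 of 8 on chromosome 15 and 10 of 12 on chromosome 3. The medians of chromosomes 2, 15 and 3 were smaller in size, at -0.20, -0.17 and -0.11, and -0.05, -0.02 and 0.04 with library totals. With library totals the medians of chromosomes 8 and 14 were -0.37 and -0.35. *Cdh3*, *Cdh11* and *Pcdh9* are the members on chromosomes 8 and 14 that were lower in KO, *Cdh1* was higher, and 4 did not pass the test. On the other chromosomes 12 members were tested, with 7 lower, 2 higher and 3 past no threshold. The falls of *Cdh3* and *Pcdh9*, -7.94 and -4.33, were many times the median of their chromosome, whereas the -0.15 of *Cdh11* was smaller than it, and the part of the chromosome in these results was not tested.

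**Figure D5:**
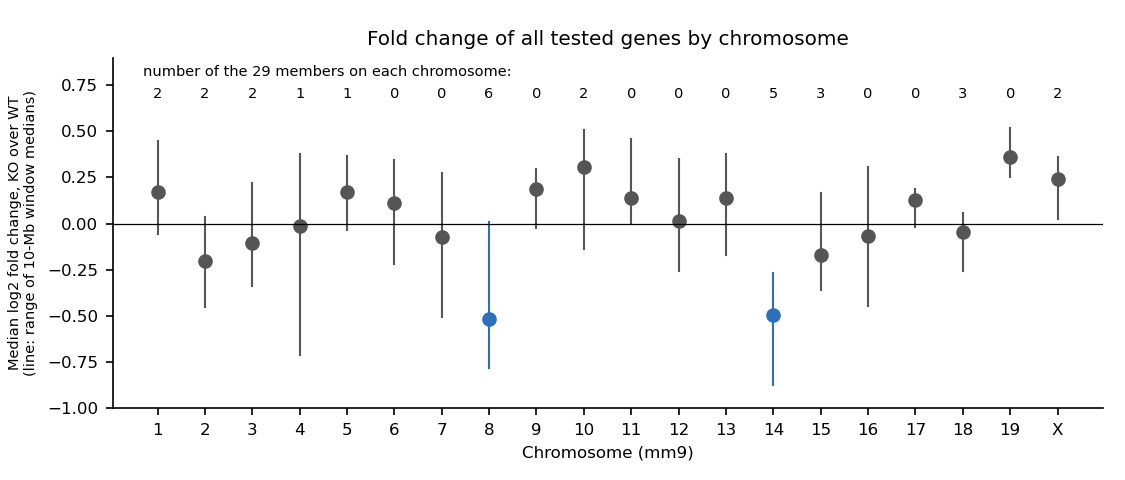
Median log2 fold change of KO over WT of all tested genes on each chromosome (points), with the range of the medians of its 10-Mb windows of at least 20 genes (lines), and the number of the 29 genes on each chromosome above. Chromosomes 8 and 14, in blue, have medians of -0.52 and -0.50 and carry 6 and 5 of the genes.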

How the data were processed

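RNA was extracted from subconfluent MEF cultures, depleted of ribosomal RNA and made into stranded libraries. According to the methods and the submitters' processing notes, the authors called bases with CASAVA 1.8.2, aligned reads to mm9 with TopHat2 and Bowtie and obtained the deposited raw counts per gene with HTSeq 0.5.4p3. Whether the counting used the strand could not be read from the sources used here. The table further holds normalized values (5 columns per sample or group) and log2 ratios and p-values of a comparison by the authors, none of which were used.

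The raw counts of all 23537 genes went into edgeR 4.0.16 under R 4.3.3 (filterByExpr, TMM, quasi-likelihood test on genotype alone, Benjamini-Hochberg adjustment over 15538 genes). The standard error of a log2 fold change was taken from its size and the F statistic (size over root F). Exon lengths and positions come from GENCODE annotation of mm9. Total counts of 39108275 to 47567835 set the precision, and intervals and limits cover counting error only. Ratios with 1 to 3 counts in a group carry exact 95% intervals. The scripts were tested on simulated data.

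Members, roles, lists and alternatives were chosen with earlier results of these data known. Members past the stricter limits (adjusted p 0.01, log2 fold change of 2 in size) and the 10 with the highest level are given with their values, the others by groups. Up to 4 genes per direction with a mean of at least 1 CPM and the most abundant gene were named per list, and *Zeb1*, *Zeb2*, *Twist1*, *Grhl1*, *Ret*, *Ctnnb1*, *Ctnna1*, *Ctnnd1*, the desmosomal cadherins and most single markers were named outside this rule. Listed genes without a row, among them 8 cadherins and protocadherins, were not analysed here. Alternatives were other scalings (RLE, upper quartile, library totals), filters, DESeq2 1.42.0, voom of limma 3.58.1, a block for the replicate number, and fits lacking 1 library. 4 members overlap exons of another gene. For *Cdh24* and *Pcdh19* it lies on the opposite strand, and without the strand setting those reads cannot be assigned. For *Cdh4* and *Pcdh15* it lies on the same strand, where the strand setting would not assign them either.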

Additional observations from a re-analysis of the deposited data

How the results depend on the processing

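The 7 large changes (*Cdh4*, *Cdh1*, *Cdh26*, *Cdh3*, *Pcdh11x*, *Pcdh9* and *Pcdh1*) kept direction and call under each setting that tested them, the highest adjusted p being 0.0034, for *Pcdh1*. Requiring 10 counts in every library left 14 members, 1 higher and 6 lower, and 1 of each past the stricter limits, since genes near 0 in 1 genotype were removed. Library totals gave 7 members higher. Leaving out 1 library gave 3 to 5 higher (5 without WT replicate 2) and 7 to 10 lower, with 3 and 4 past the stricter limits throughout. Of 234 refitted member fold changes 203 kept direction and side of the threshold, 16 lost the call, 13 gained it (in *Cdh13*, *Cdh16*, *Cdh17*, *Cdh23*, *Cdh24* and *Pcdh8*) and 2 reversed, both in *Cdh18*, whose log2 fold change ranged from -0.020 to 0.253 when a library was left out, below 0 without KO replicate 1 or WT replicate 2. Under each setting run, 13 junction partners were lower. Of the transcription factors 1 was lower with upper quartile, library totals and DESeq2. *Erg*, from the list of endothelial markers and not called in either fit, reversed from -0.131 to 0.018 with library totals. The cause of these shifts was not tested.

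Same-numbered libraries did not deviate together (correlation of -0.04 over 15538 genes). With so few libraries this cannot settle whether they shared a batch. With the replicate number as a block 4 members were higher and 9 lower. Genes under about 10 counts, such as *Pcdh10*, *Pcdh17* and the other untested members, were too shallow for a test.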
